A study of Mus musculus with 24 samples.

Results

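Tissue of hippocampal CA1, the output field of the hippocampus, was compared between mice killed 12 h and mice killed 6 h after pilocarpine-induced status epilepticus (SE). The comparison took 6 of the 24 libraries of the series, the 3 labelled as treated at 12 h and the 3 labelled as treated at 6 h, and covered all genes. The mice were adult C57Bl/6N, at least 60 days old and at least 20 g in weight. The labels number the samples but do not say that each is 1 mouse, so the p-values measure a spread between samples. That spread was estimated within the groups of all 24 libraries, not from the 6 compared libraries alone. The mice of both groups had been given 1 mg/kg scopolamine methyl nitrate, which blocks muscarinic receptors outside the brain, then 335 mg/kg pilocarpine, a muscarinic agonist, and 4 mg/kg diazepam after the seizures had begun. Pilocarpine-injected mice without SE were not used, so the groups hold SE-experienced mice alone. Non-SE controls (Ctr) had saline in place of pilocarpine and the same other drugs, and were killed at 12, 36 and 72 h, with 3 libraries each. No control of the 6 h time point was analysed, and the remaining SE groups (24, 36 and 72 h, 3 libraries each) served as the later course. CA1 was dissected by hand from slices of 400 µm, so each library is a mixture of neurons, glia and vessels.

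In the first hours after SE, neurons transcribe immediate early genes and secreted peptides, while astrocytes and microglia begin to change from their resting state to a reactive one. Astrocytes take up glutamate and potassium, microglia survey the tissue and clear debris, and oligodendrocytes make the myelin of CA1's fibre layers. Most cells of the hippocampus also hold a circadian clock, whose output transcription factors rise and fall with the time of day.

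The values were counts of reads per gene, scaled to the library size as CPM with edgeR's TMM factors. Library totals were 10949845 to 25572520 counts at 6 h and 12623517 to 30133731 at 12 h, against 2663936 to 30133731 over the series. Markers of pyramidal neurons were detected in all 6 libraries, and the list of 12 general neuron genes summed to 10866 to 14686 CPM at 6 h and 9862 to 10437 CPM at 12 h. Libraries that stood apart were found on both sides. A list of 9 genes of sensory ganglia, such as Prph, Calca and Scn10a, summed to 358 CPM in 6 h replicate 3 and 707 CPM in 12 h replicate 1, and to 15.8 to 19.1 CPM in the other 4 libraries. Xist, transcribed in female cells, was at 13.6 and 34.1 CPM in those 2 libraries and at 0.40 to 0.588 CPM in the others, while the Y-linked Ddx3y was at 73.3 to 168 CPM in all 6. The highest sums of the ganglion list in the series were 1907 CPM in Ctr 72 h replicate 2 and 1041 CPM in SE 72 h replicate 1. The part of this RNA in the results below was not tested beyond 1 further fit. It left out the 6 libraries of the series in which the list was above 100 CPM, 1 of each compared group among them. It called 187 genes, 104 of them also called with all libraries, and 29 of the 64 called genes that were followed by name lost their call.

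A gene was called when its adjusted p was at most 0.05, by the quasi-likelihood test of edgeR with Benjamini-Hochberg correction, and its log2 fold change was at least 1 in either direction. A lone value in parentheses after a gene's name is its log2 fold change of 12 h over 6 h. Of 18153 genes tested, 243 (1.34%) were called, 81 (0.446%) higher and 162 (0.892%) lower at 12 h than at 6 h. These shares are the background for every count of called genes in the lists below. Without a limit on the fold, 823 genes (4.53%) passed the adjusted p, 371 (2.04%) higher and 452 (2.49%) lower. The median log2 fold change of all genes tested was -0.0027. In 227 (1.25% of the genes tested) of the 243 called genes the 3 libraries of 12 h did not overlap with the 3 of 6 h, and in 16 (0.0881%) they did. Over all genes 10.2% lay wholly above and 10.6% wholly below. The named genes with the most marked rise were Gal, Col27a1, Lif, Tmem40 and Pdyn, and those with the most marked fall were Rxfp1, Magel2, Cdca3, Gucy2c and Cenpa. The number of calls depended on the libraries used. Without SE 6 h replicate 3, 75 genes were called. That library was the deepest of the 6 h group and the only one of it rich in ganglion markers and Xist. The part of these traits in the lower count was not tested. A fit of the 6 libraries alone with 1 RUVr factor, a term for unwanted variation taken from the residuals, called 72 genes, 61 of them among the 243. One without the factor called 0 by edgeR, with 2516 of 16734 genes at an unadjusted p under 0.05. In the fit of all 24 libraries the factor was largest in size in Ctr 72 h (0.797 in replicate 2, -0.396 in replicate 1 and -0.358 in replicate 3). It was at most 0.131 in size in the other libraries. The numbers in the labels fell into 3 ranges that were spread unevenly over the groups. At 6 h, replicates 1 and 2 lay in 109 to 122 and replicate 3 in 92 to 104. At 12 h, replicate 1 lay in 162 to 169 and replicates 2 and 3 in 92 to 104. Only 92 to 104 held libraries of both groups, so range and time after SE were partly confounded. With the range as a factor 221 genes were called, 156 of them among the 243, while 14 of the 64 genes followed by name lost their call. Ranges given below for the median of a list include a fit whose 6 h group was 1 library. Scaling by the library total alone turned the split to 104 higher and 126 lower.

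**Figure D1:**
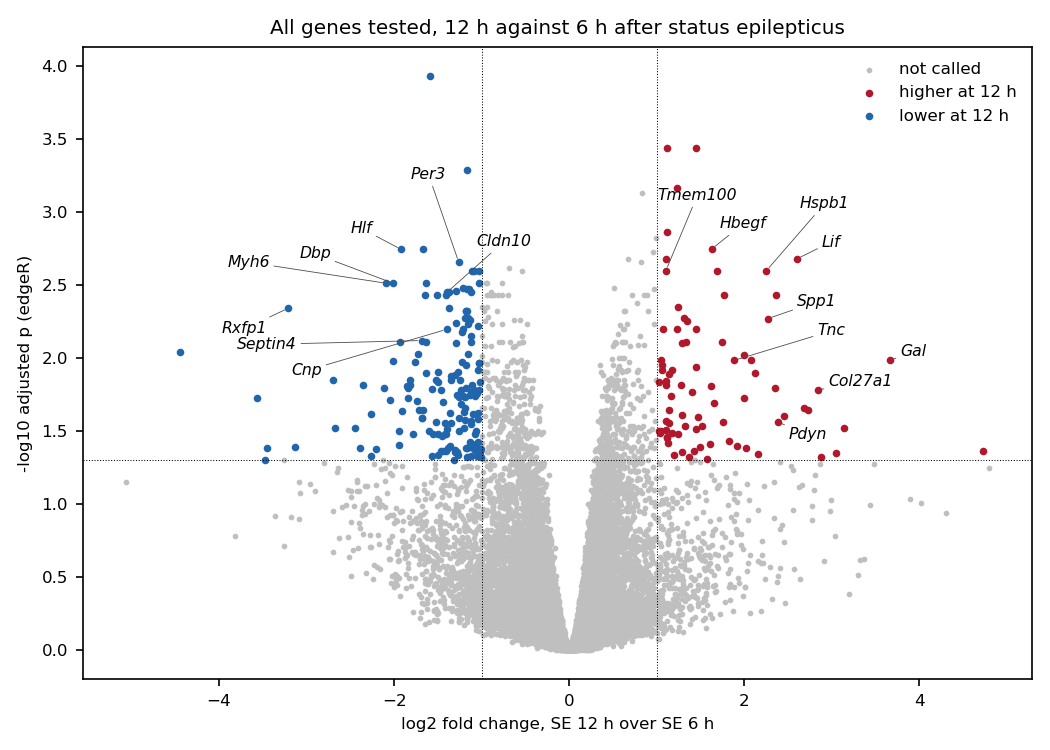
Each point is 1 of the 18153 genes tested, with the log2 fold change of SE 12 h over SE 6 h on the horizontal axis and -log10 of the adjusted p on the vertical axis. The 81 genes called higher lie at the upper right and the 162 called lower at the upper left, and the dotted lines mark the limits of a call.

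Output genes of the circadian clock were lower at 12 h. All 13 genes of the list had a log2 fold change below 0, with a median of -0.74 against -0.0027 over all genes, and 3 of the 13 (Dbp, Hlf and Per3) were called against 0.892% of all genes called lower. Another 5 passed the adjusted p without reaching the fold limit. The median of the list ran from -0.83 to -0.55 over the alternatives tried, other scalings included. Dbp, Hlf and Tef encode PAR bZIP factors that bind the D-box of target genes, and Per3 encodes a member of the PERIOD family.

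The 250 bases before the RefSeq start of the 3 called genes (build GRCm38.p6, each read 5′ to 3′ on the gene's strand) are shown because these 3 genes fell most within the list, and capitals mark the motifs searched on either strand, the D-box TTATGTAA, the E-box CACGTG and the cyclic AMP response element TGACGTCA.
Dbp, chr7:45704997-45705246, plus strand: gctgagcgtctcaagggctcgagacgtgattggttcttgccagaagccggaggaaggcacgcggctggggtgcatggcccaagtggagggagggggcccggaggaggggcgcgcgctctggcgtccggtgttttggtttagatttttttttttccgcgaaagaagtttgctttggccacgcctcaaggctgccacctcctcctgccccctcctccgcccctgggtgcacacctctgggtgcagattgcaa
Hlf, chr11:90390918-90391167, minus strand: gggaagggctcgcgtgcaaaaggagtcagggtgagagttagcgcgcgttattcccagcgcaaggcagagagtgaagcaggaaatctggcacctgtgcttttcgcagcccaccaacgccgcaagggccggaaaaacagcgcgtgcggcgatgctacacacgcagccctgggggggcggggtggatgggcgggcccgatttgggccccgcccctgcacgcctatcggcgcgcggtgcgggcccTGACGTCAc
Per3, chr4:151044666-151044915, minus strand: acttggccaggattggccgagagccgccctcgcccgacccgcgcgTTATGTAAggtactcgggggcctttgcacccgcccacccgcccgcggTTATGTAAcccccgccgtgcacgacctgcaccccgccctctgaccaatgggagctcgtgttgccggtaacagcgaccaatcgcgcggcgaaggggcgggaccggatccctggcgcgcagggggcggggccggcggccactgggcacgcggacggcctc
The Per3 promoter held the D-box letters at 2 places, the Hlf promoter held the cyclic AMP element, and the Dbp window held none of the 3 motifs. Of 32851 RefSeq promoters of this length, 0.819% held the D-box, 6.02% the E-box and 1.55% the cyclic AMP element. Of the 11 clock output genes with an entry, 1 held the D-box, 4 the E-box and 1 the cyclic AMP element, counted over all entries of a gene. These are counts of genes, whereas the shares above are of promoters, so they are not directly comparable. No match overlapped a match to another of the 3 motifs. The matches describe the letters of these windows and show no binding.

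Dbp (GRCm39 chromosome 7, 45354512 to 45359627) was at 15.7, 10.6 and 14.3 CPM at 6 h and at 4.17, 3.75 and 1.91 CPM at 12 h (log2 fold change -2.01 ± 0.33 (s.e.), edgeR adjusted p = 0.00307). Hlf (chromosome 11, 90227221 to 90281761) went from 146, 97.3 and 135 CPM to 28.9, 30.8 and 41.4 CPM (log2 fold change -1.92 ± 0.28 (s.e.), edgeR adjusted p = 0.0018). For Per3 (chromosome 4, 151081373 to 151129140) the values were 32.2, 20.0 and 23.3 CPM at 6 h and 11.2, 11.1 and 9.0 CPM at 12 h (log2 fold change -1.26 ± 0.19 (s.e.), edgeR adjusted p = 0.0022). In none of the 3 genes did the groups overlap, and all 9 controls lay above all 12 h libraries (26.8 to 59.2 CPM for Dbp, 123 to 275 CPM for Hlf and 32.6 to 72.6 CPM for Per3). For Dbp and Per3 all controls lay above all 6 h libraries as well, whereas for Hlf the 6 h libraries overlapped the controls. The controls pool the 12, 36 and 72 h groups. Tef (-0.77, adjusted p = 0.00581), Nr1d1 (-0.72, adjusted p = 0.0143), Nr1d2 (-0.97, adjusted p = 0.00556), Cry2 (-0.63, adjusted p = 0.0181) and Usp2 (-0.75, adjusted p = 0.0438) passed the adjusted p alone. Nr1d1 and Nr1d2 encode the REV-ERB repressors of Bmal1. Per1, Per2, Bhlhe40, Bhlhe41 and Ciart had log2 fold changes of -0.23, -0.32, -0.31, -0.32 and -0.74 and did not pass. Dbp, Hlf and Per3 stayed called with each of the 6 libraries left out in turn. Of the 6 tested genes that peak in the opposite phase or drive the clock, Bmal1 (0.24), Clock (0.23), Npas2 (-0.70), Nfil3 (-0.55) and Cry1 (0.22) did not pass, and the nuclear receptor gene Rorb fell from 42.6, 65.5 and 85.8 CPM to 23.4, 33.7 and 35.5 CPM (log2 fold change -1.08 ± 0.25 (s.e.), edgeR adjusted p = 0.0182). Rorb lost its call without 12 h replicate 1 (-0.91) and 6 h replicate 3 (-0.81). Rorb (-0.63) was not called when the 6 libraries rich in ganglion markers were left out. The hour of the injection is not given in the sources used here, and the time of day and the time after SE cannot be told apart between 6 and 12 h. Dbp shares exon bases with Sphk2, and Per3 with Uts2, on the other strand. Counting ignored the strand, so it was not used to assign reads of the shared bases.

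Lif and Clcf1, ligands that signal through gp130, rose. Of 14 genes of the cytokine list, these 2 rose, none fell and 12 did not pass, against 0.446% of all genes called higher. Their median was 0.13, with both signs among the alternatives (-0.16 to 0.60). Lif, leukaemia inhibitory factor, signals through gp130 and STAT3 in astrocytes and neurons. Lif (chromosome 11, 4207557 to 4222514) was at 12.4, 20.1 and 20.3 CPM at 6 h, 173, 64 and 93 CPM at 12 h and 0 to 1.73 CPM in controls (log2 fold change 2.6 ± 0.39 (s.e.), edgeR adjusted p = 0.00209). Clcf1 (chromosome 19, 4264292 to 4273546), which encodes another ligand of that receptor complex, had 9.19, 9.8 and 6.41 CPM at 6 h and 32.2, 15.4 and 27.6 CPM at 12 h (log2 fold change 1.61 ± 0.43 (s.e.), edgeR adjusted p = 0.0384). In both genes every 12 h library lay above every 6 h library. Lif stayed called with each of the 6 libraries left out in turn. Clcf1 kept its call without 12 h replicate 2 (1.86) and lost it without any other library (1.36 to 1.72). Il1b (-1.68), Il1a (-1.3), Il6 (-0.68) and Tnf (-0.22), the classical inflammatory cytokines, and Osm (0.51), Il11 (0.72), Socs3 (0.32) and Stat3 (0.10) did not pass. Il1b was low throughout, at 1.04, 0.882 and 4.46 CPM at 6 h and 0.547, 0.597 and 0.797 CPM at 12 h. None of 14 chemokine genes was called by edgeR, DESeq2 or limma-voom, and 2 of them had an unadjusted p under 0.05, both lower at 12 h. Ccl3, for example, was at 16.5, 51 and 69.4 CPM and then at 12.9, 17.6 and 33.8 CPM (log2 fold change -1.17 ± 0.47 (s.e.), edgeR adjusted p = 0.168). Values for Ccl2, Ccl4 and Cxcl1 were -0.08, -0.75 and -1.44.

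Among 13 neuropeptide genes, 2 rose, against 0.446% of all genes called higher, none fell and 11 did not pass (median -0.07, -0.29 to 0.26 among the alternatives). Gal (chromosome 19, 3459912 to 3464881), the precursor of galanin, was at 1.44, 0.588 and 1.02 CPM at 6 h and 11.1, 19.9 and 5.58 CPM at 12 h (log2 fold change 3.66 ± 0.74 (s.e.), edgeR adjusted p = 0.0104). Controls held 0 to 12.3 CPM of it, and the highest control was Ctr 72 h replicate 2, which also had the highest sum of sensory ganglion genes. Without the 6 libraries above 100 CPM of that list, the value for Gal was 3.61 (edgeR adjusted p = 0.0458). Pdyn (chromosome 2, 129528469 to 129541945), the precursor of the dynorphin opioid peptides of granule cells, was at 19.3, 4.9 and 2.34 CPM at 6 h and 11.8, 78.7 and 66.4 CPM at 12 h (log2 fold change 2.39 ± 0.59 (s.e.), edgeR adjusted p = 0.0274). Here the groups overlapped, since 12 h replicate 1 lay below 6 h replicate 1. Dentate granule markers varied among the libraries as well. C1ql2, a granule cell gene, was at 15.6, 3.04 and 2.04 CPM at 6 h and 33, 6.26 and 33.5 CPM at 12 h, and Dsp was at 1.52, 0.294 and 0.17 CPM and 15, 0.597 and 7.65 CPM. The library highest in Pdyn, 12 h replicate 2, was the lowest of its group in both markers, and the part of dentate tissue in Pdyn was not tested. Gal lost its call without 6 h replicate 3 (3.64) and was at 2.97 without 12 h replicate 2. Pdyn kept its call without 12 h replicate 1 (3.1) and 6 h replicate 1 (3.72) and lost it without any other library (1.84 to 2.18). Penk was high in 12 h replicate 2 alone (30.8, 297 and 45.3 CPM at 12 h and 23, 36.1 and 39.7 CPM at 6 h, log2 fold change 1.88 ± 0.62 (s.e.), edgeR adjusted p = 0.0842). Npy (0.69, adjusted p = 0.146), Tac1 (-0.25, adjusted p = 0.866) and Sst (0.03, adjusted p = 0.976) did not pass.

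Among stress genes, Hspb1 and Nupr1 rose. Of 12 heat shock genes, Hspb1 rose, none fell and the median was 0.28 (-0.26 to 0.40 among the alternatives). Hspb1 (chromosome 5, 135916760 to 135918417), a small heat shock protein of reactive astrocytes and injured neurons, was at 34.1, 46.3 and 32.5 CPM at 6 h and 200.5, 83.3 and 257 CPM at 12 h (log2 fold change 2.25 ± 0.35 (s.e.), edgeR adjusted p = 0.00252). All 3 libraries of 12 h lay above those of 6 h and above the controls (3.09 to 42.6 CPM), of which Ctr 72 h replicate 2 was again the highest. The inducible HSP70 genes did not pass, and Hspa1a was high in 12 h replicate 3 alone (27.5, 23.3 and 29 CPM at 6 h and 8.0, 19.8 and 178 CPM at 12 h). Hspa1b (1.61), Dnajb1 (-0.14) and Hsph1 (0.41) did not pass either. In the list of 15 genes of the ER and integrated stress response, 1 rose and none fell (median 0.26, 0.07 to 0.59 among the alternatives). That gene was Nupr1, a stress-induced chromatin protein, with 10.1, 3.33 and 3.57 CPM at 6 h and 14.7, 15.3 and 16.2 CPM at 12 h (log2 fold change 1.45 ± 0.37 (s.e.), edgeR adjusted p = 0.0305). Its later levels were higher still, 70.1 ± 23.4 CPM (SD, n = 3) at 24 h. Hspb1 stayed called with each of the 6 libraries left out in turn. Nupr1 kept its call without 6 h replicate 1 (2.14) and lost it without any other library (1.16 to 1.49). Nupr1 (1.3) was not called when the 6 libraries rich in ganglion markers were left out. Atf4 (0.26), Ddit3 (0.10), Trib3 (0.29) and Chac1 (0.11), the core of the response, did not pass, and Manf (0.70, adjusted p = 0.0434) passed the adjusted p alone.

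Gfap and other genes of reactive astrocytes rose. Of 16 genes, 4 were called higher (Gfap, Lcn2, Cd44 and S1pr3) against 0.446% of all genes, none was called lower by edgeR (limma-voom called 5 higher and 1, Steap4, lower), and 13 had a log2 fold change above 0, with a median of 0.58 (0.35 to 0.97 among the alternatives). The list summed to 1931 to 3021 CPM at 6 h, 3266 to 5762 CPM at 12 h and 385 to 846 CPM in controls. Gfap (chromosome 11, 102778159 to 102791738), the intermediate filament of astrocytes, was at 1980.3, 1560.5 and 1083 CPM at 6 h and 3538, 2228 and 3666 CPM at 12 h (log2 fold change 1.03 ± 0.23 (s.e.), edgeR adjusted p = 0.0145). S1pr3, a sphingosine-1-phosphate receptor, had 47.7, 56 and 38.7 CPM at 6 h and 148, 70.0 and 150.01 CPM at 12 h (log2 fold change 1.35 ± 0.25 (s.e.), edgeR adjusted p = 0.00556). The hyaluronan receptor gene Cd44 (chromosome 2, 102641486 to 102732010) went from 86.2, 81.1 and 65.6 CPM to 207, 148 and 214 CPM (log2 fold change 1.29 ± 0.31 (s.e.), edgeR adjusted p = 0.0245). For Lcn2, the iron-binding lipocalin of reactive astrocytes, the values were 23.4, 17.1 and 7.94 CPM and 44.3, 38.2 and 80.3 CPM (log2 fold change 1.76 ± 0.44 (s.e.), edgeR adjusted p = 0.0275). None of the 4 genes overlapped between the groups. S1pr3 stayed called with each of the 6 libraries left out in turn. Gfap lost its call without 12 h replicate 1 (0.94), 12 h replicate 3 (0.91) and 6 h replicate 3 (0.83). Cd44 lost its call without 12 h replicate 1 (1.2), 6 h replicate 2 (1.32) and 6 h replicate 3 (1.2). Lcn2 lost its call without 12 h replicate 3 (1.37), 6 h replicate 2 (1.81) and 6 h replicate 3 (1.41). Gfap (0.75), Cd44 (1.09) and Lcn2 (1.53) were not called when the 6 libraries rich in ganglion markers were left out. Vim (0.45, adjusted p = 0.323) and Serpina3n (0.78, adjusted p = 0.194) did not pass, and S100a10 (0.98, adjusted p = 0.0267) passed the adjusted p alone. In tissue of mixed cells, more cells of a type and more RNA per cell cannot be told apart, here and in the lists that follow.

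Of 17 genes of the protease and matrix list, Tnc and Cd44 rose, none fell and 15 did not pass (median 0.34, -0.02 to 0.81 among the alternatives). Of all genes, 0.446% were called higher. Tnc (chromosome 4, 63878014 to 63965443), tenascin-C, a glycoprotein of injured tissue, was at 13.3, 11.9 and 14.7 CPM at 6 h and 55.6, 41.8 and 49 CPM at 12 h (log2 fold change 1.88 ± 0.38 (s.e.), edgeR adjusted p = 0.0104). The 6 h libraries lay near the controls (2.39 to 13.5 CPM), and all 12 h libraries lay above both. Timp1 (1.03, adjusted p = 0.053), Adamts1 (0.34, adjusted p = 0.571), Has2 (1.24, adjusted p = 0.183) and Mmp3 (1.63, adjusted p = 0.163) did not pass. Adam12, a membrane metalloprotease, was at 10.4, 4.8 and 3.35 CPM at 6 h and 35.5, 18.5 and 21.6 CPM at 12 h (log2 fold change 2.07 ± 0.42 (s.e.), edgeR adjusted p = 0.0104). Tll1, which encodes a procollagen-processing protease, was at 16, 4.8 and 3.95 CPM and 16.3, 40.8 and 39.8 CPM (log2 fold change 2.02 ± 0.55 (s.e.), edgeR adjusted p = 0.041), with 12 h replicate 1 barely above 6 h replicate 1. The fibrillar collagen gene Col27a1 rested on 12 h replicate 2, with 19.3, 19 and 9.6 CPM at 6 h and 38.8, 258 and 45.4 CPM at 12 h (log2 fold change 2.84 ± 0.64 (s.e.), edgeR adjusted p = 0.0165). Tnc stayed called with each of the 6 libraries left out in turn. Adam12 lost its call without 6 h replicate 3 (1.73) and was at 2.68 without 6 h replicate 1. Tll1 kept its call without 12 h replicate 1 (2.28) and 6 h replicate 1 (2.94) and lost it without any other library (1.7 to 1.86). Col27a1 lost its call without 12 h replicate 2 (1.41) and 6 h replicate 3 (2.56). Adam12 (1.41) was not called when the 6 libraries rich in ganglion markers were left out.

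**Figure D2:**
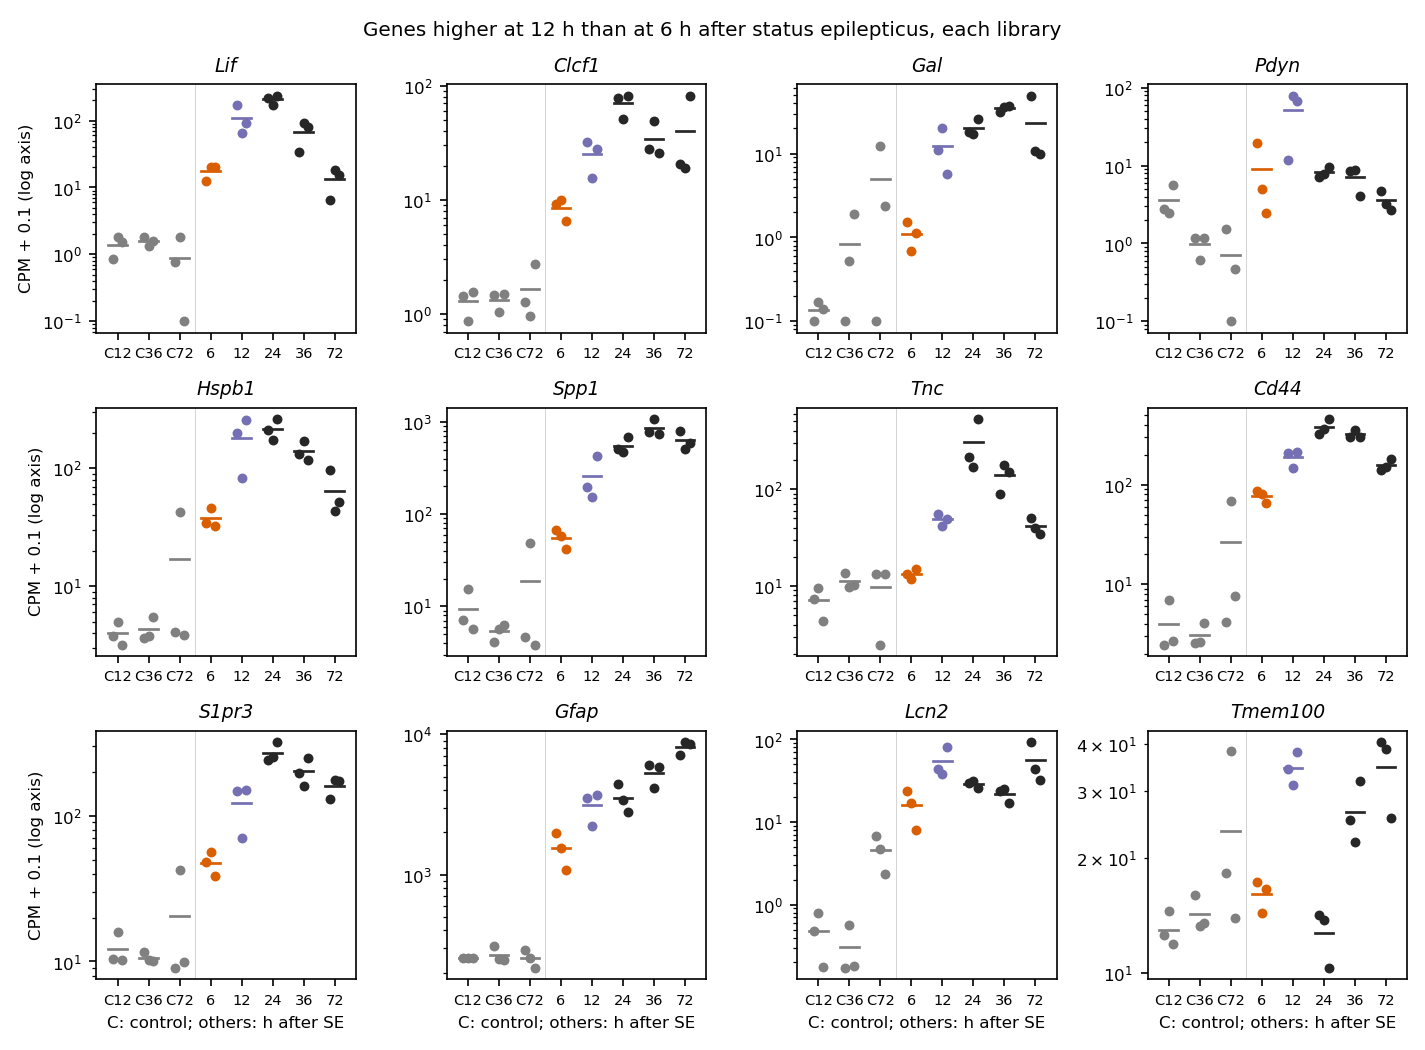
The panels show 12 genes called higher at 12 h than at 6 h, with 1 panel each, with CPM plus 0.1 on a log axis. Points are libraries and bars are means of 3, for control groups (C12, C36 and C72, grey), SE 6 h (orange), SE 12 h (violet) and SE 24, 36 and 72 h (black). The 3 libraries of 12 h lie above the 3 of 6 h in 11 of the 12 panels, the exception being Pdyn. Of all 243 called genes, 227 were without overlap.

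The reactive microglia genes Spp1 and Lgals3 rose. Of 14 genes of the reactive microglia list, 2 were called higher (Spp1 and Lgals3), none was called lower and 12 were not called (median 0.22, 0.06 to 0.42 among the alternatives). Without the fold limit, 3 of the 14 passed the adjusted p, all higher. The share of all genes called higher was 0.446%. Spp1 (chromosome 5, 104582165 to 104589235), osteopontin, went from 67.4, 57.6 and 41.5 CPM to 197, 155 and 426 CPM (log2 fold change 2.27 ± 0.41 (s.e.), edgeR adjusted p = 0.00536). Lgals3, the lectin galectin-3, went from 5.83, 7.15 and 4.88 CPM to 11.5, 17.1 and 17.7 CPM (log2 fold change 1.42 ± 0.39 (s.e.), edgeR adjusted p = 0.0431). All 12 h libraries lay above all 6 h libraries in both genes. Lpl (1.17, adjusted p = 0.149), Cst7 (0.37, adjusted p = 0.715) and Clec7a (-1.68, adjusted p = 0.145) did not pass. Of 12 genes of resting microglia, 7 had a log2 fold change above 0, 2 fell (Selplg and Siglech), none rose above the fold limit, and Cx3cr1 (0.82, adjusted p = 0.0154), the fractalkine receptor, passed the adjusted p alone, higher at 12 h. Siglech, a lectin of resting microglia, was at 8.95, 11.6 and 12.1 CPM at 6 h, 4.87, 3.88 and 7.01 CPM at 12 h and 14 to 22.3 CPM in controls (log2 fold change -1.07 ± 0.28 (s.e.), edgeR adjusted p = 0.0328). Selplg, the ligand of P-selectin, was at 5.35, 4.7 and 6.71 CPM at 6 h and 2.39, 2.78 and 2.63 CPM at 12 h, well under the controls (32.2 to 46.5 CPM, log2 fold change -1.12 ± 0.30 (s.e.), edgeR adjusted p = 0.04). The whole list had a median of 0.11 (0.01 to 0.17 among the alternatives) and summed to 228 to 243 CPM at 6 h, 253 to 309 CPM at 12 h and 376 to 507 CPM in controls. P2ry12 (-0.14) and Tmem119 (0.85) did not pass. Cd300lb, a receptor of myeloid cells, was at 1.36, 1.27 and 0.807 CPM and then at 5.57, 3.94 and 3.11 CPM (log2 fold change 1.91 ± 0.50 (s.e.), edgeR adjusted p = 0.0401). Spp1 stayed called with each of the 6 libraries left out in turn, with Spp1 at 1.64 without 12 h replicate 3. Lgals3 kept its call without 12 h replicate 1 (1.54) and lost it without any other library (1.3 to 1.58). Siglech kept its call without 12 h replicate 3 (-1.32) and 6 h replicate 1 (-1.19) and lost it without any other library (-1.03 to -0.89). Selplg lost its call without each of the 6 libraries in turn (-1.22 to -0.95). Cd300lb kept its call without 12 h replicate 3 (2.1) and lost it without any other library (1.67 to 2.07). Lgals3 (1.43), Siglech (-0.96), Selplg (-0.90) and Cd300lb (1.42) were not called when the 6 libraries rich in ganglion markers were left out. Markers of infiltrating leukocytes were near 0. The 4 tested of 9 summed to 5.75 to 8.49 CPM at 6 h and 6.23 to 9.99 CPM at 12 h, and Cd3e, Ly6c2 and Plac8 were among those not tested.

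The myelin genes Mog and Cnp fell. All 10 genes of the list had a log2 fold change below 0, with a median of -1.07 (-1.42 to -0.77 among the alternatives). Of the 10, 2 (Mog and Cnp) were called, against 0.892% of all genes called lower. The list summed to 6096 to 6471 CPM at 6 h, 1558 to 4398 CPM at 12 h and 2685 to 4825 CPM in controls. Mog (chromosome 17, 37321521 to 37334350), a protein of the outer myelin surface, was at 55.5, 62.5 and 67.3 CPM at 6 h, 23.1, 9.78 and 30.4 CPM at 12 h and 23 to 66.7 CPM in controls (log2 fold change -1.56 ± 0.41 (s.e.), edgeR adjusted p = 0.0331). Cnp (chromosome 11, 100465730 to 100482936), a phosphodiesterase of myelin, was at 331, 338 and 389 CPM and then at 129, 79.7 and 194 CPM (log2 fold change -1.4 ± 0.26 (s.e.), edgeR adjusted p = 0.00633). The 3 libraries of 6 h lay close together, whereas 12 h replicate 2 was the lowest of its group in both genes. The abundant myelin gene Mbp (2106, 2213 and 2257 CPM at 6 h and 1034, 604 and 1524 CPM at 12 h, log2 fold change -1.06 ± 0.32 (s.e.), edgeR adjusted p = 0.0634) did not overlap between the groups but did not pass the adjusted p, and Mbp was called, at -1.17 (edgeR adjusted p = 0.0141), without the 6 libraries rich in ganglion markers. Mag (-0.75, adjusted p = 0.23) did not pass either. Of 9 genes of oligodendrocyte precursors and newly formed cells, 2 fell (Enpp6 and Cmtm5) and none rose (median -0.49, -0.76 to -0.26 among the alternatives). Enpp6, a choline phosphodiesterase of newly formed oligodendrocytes, was at 9.75, 9.8 and 11.8 CPM and 2.73, 1.46 and 4.94 CPM (log2 fold change -1.82 ± 0.40 (s.e.), edgeR adjusted p = 0.0152). Cmtm5 had 37.3, 40.3 and 37.6 CPM and 16.3, 12.9 and 23.7 CPM (log2 fold change -1.13 ± 0.26 (s.e.), edgeR adjusted p = 0.0179). Pdgfra (0.12), Cspg4 (-0.24), Olig2 (-0.53) and Gpr17 (-0.71), markers of the precursors themselves, did not pass.

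Cnp stayed called with each of the 6 libraries left out in turn. Mog kept its call without 12 h replicate 3 (-1.88) and 6 h replicate 1 (-1.63) and lost it without any other library (-1.65 to -1.22). Enpp6 lost its call without 12 h replicate 2 (-1.45) and 6 h replicate 3 (-1.72). Cmtm5 kept its call without 12 h replicate 3 (-1.39) and 6 h replicate 1 (-1.15) and lost it without any other library (-1.15 to -0.95). Septin4, a filament protein found in myelin, was not on the list and fell from 141, 126 and 136 CPM to 48.4, 24 and 52.8 CPM (log2 fold change -1.68 ± 0.32 (s.e.), edgeR adjusted p = 0.00756). Its groups did not overlap, which was a condition for naming it. Septin4 stayed called with each of the 6 libraries left out in turn. Mog shares exon bases with Zfp57, and Cnp with Dnajc7, on the other strand. DESeq2 called 5 and limma-voom 4 of the 10 oligodendrocyte genes.

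Cldn10 of the resting astrocyte and the receptor genes Grm3 and Grik3 fell. Of 14 genes of astrocyte homeostasis, 12 had a log2 fold change below 0, with a median of -0.46 (-0.55 to -0.31 among the alternatives), and 1 was called. That was Cldn10 (chromosome 14, 119025320 to 119112901), a claudin of astrocytes, which went from 20.5, 21.6 and 23.1 CPM to 4.22, 10.1 and 10.6 CPM, all below the controls (23.9 to 40.8 CPM, log2 fold change -1.39 ± 0.23 (s.e.), edgeR adjusted p = 0.00351). Gja1 (-0.75, adjusted p = 0.0412), the gap junction protein connexin 43, and Glul (-0.73, adjusted p = 0.0179), glutamine synthetase, passed the adjusted p alone. Aqp4 (0.26), Slc1a2 (-0.28) and Kcnj10 (-0.65) did not pass. Of 18 glutamate receptor genes, 2 fell (Grm3 and Grik3), against 0.892% of all genes called lower, and none rose. The median was -0.23 (-0.35 to -0.12 among the alternatives). Grm3, a metabotropic receptor of astrocytes and neurons, was at 29.8, 36.3 and 49.7 CPM at 6 h and 13.6, 16.7 and 19.5 CPM at 12 h (log2 fold change -1.24 ± 0.29 (s.e.), edgeR adjusted p = 0.0204). The kainate receptor gene Grik3 went from 111, 123 and 104 CPM to 66.6, 51.5 and 48.2 CPM (log2 fold change -1.0 ± 0.28 (s.e.), edgeR adjusted p = 0.0416). In both genes all 12 h libraries lay below all 6 h libraries. Gria1 (-0.21), Gria2 (-0.45), Grin1 (-0.24) and Grin2b (-0.06), the main AMPA and NMDA receptor subunits of CA1, did not pass. Cldn10 stayed called with each of the 6 libraries left out in turn. Grm3 lost its call without 12 h replicate 1 (-1.11), 12 h replicate 2 (-1.25) and 6 h replicate 3 (-1.01). Grik3 kept its call without 12 h replicate 1 (-1.17) and lost it without any other library (-1.06 to -0.91). Grm3 (-0.88) and Grik3 (-1.24) were not called when the 6 libraries rich in ganglion markers were left out.

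Other neuronal lists gave no call by edgeR. The 12 GABA-A receptor genes all had a log2 fold change below 0 (median -0.27, -0.44 to -0.16 among the alternatives), 2 had an unadjusted p under 0.05, and DESeq2 and limma-voom called 0. Values for Gabra5 and Gabrb2 were -0.16 and -0.58. Of 23 potassium and HCN channel genes, 0 were called by edgeR, 2 by DESeq2 and 1 by limma-voom, all lower, and 9 had an unadjusted p under 0.05, 7 of them lower (median -0.26, -0.43 to -0.19 among the alternatives). Kcnc2 (-0.77, adjusted p = 0.0448), a channel of fast-spiking interneurons, passed the adjusted p alone, and Kcnd2 (-0.26), Kcnip2 (0.09) and Kcna1 (-0.51) did not pass. The 12 general neuron genes were all below 0 (median -0.30, -0.61 to -0.15 among the alternatives), with Snap25 (-0.54, adjusted p = 0.049), Syt1 (-0.65, adjusted p = 0.0104) and Eno2 (-0.58, adjusted p = 0.0125) passing the adjusted p alone, and none called by edgeR, DESeq2 or limma-voom. For CA1 pyramidal genes the median was -0.23 and for interneuron genes -0.13, with 0 calls by the 3 tools and with 1 of 7 and 2 of 7 genes at an unadjusted p under 0.05. Wfs1 (-0.23), a marker of CA1 pyramidal cells, and Gad1 (-0.46), of inhibitory neurons, did not pass. Pvalb, of fast-spiking interneurons, was at 30.8, 23.6 and 33.9 CPM at 6 h and 26, 6.83 and 15.5 CPM at 12 h (log2 fold change -0.90 ± 0.38 (s.e.), edgeR adjusted p = 0.181), and it was called, at -1.39 (edgeR adjusted p = 0.0233), without the 6 libraries rich in ganglion markers.

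Most immediate early genes were not called between 6 and 12 h. Of 26 transcription factor genes of this class, 1 fell (Nr4a2), 1 rose (Klf2) and 24 did not pass (median -0.21, -0.71 to 0.58 among the alternatives). Of all genes, 1.34% were called in either direction. The s.e. of Fos and Egr1, given below, lay above the median s.e. of 0.23 over all genes. Lack of a call therefore does not show lack of a change here. Nr4a2 (chromosome 2, 56996842 to 57014331), a nuclear receptor induced by activity, was at 239, 401 and 791 CPM at 6 h and 62.9, 69 and 255 CPM at 12 h, with 12 h replicate 3 inside the range of 6 h (log2 fold change -1.95 ± 0.53 (s.e.), edgeR adjusted p = 0.0394). Klf2, a zinc finger factor of endothelium and neurons, went from 7.91, 7.25 and 9.13 CPM to 9.94, 22.5 and 27.8 CPM, where controls held 7.95 to 18 CPM (log2 fold change 1.28 ± 0.36 (s.e.), edgeR adjusted p = 0.0436). Nr4a2 kept its call without 12 h replicate 3 (-2.87) and 6 h replicate 1 (-2.27) and lost it without any other library (-2.06 to -1.36). Klf2 kept its call without 12 h replicate 1 (1.63) and lost it without any other library (0.99 to 1.38). Nr4a2 (-1.07) was not called when the 6 libraries rich in ganglion markers were left out. Fos was at 100.04, 238 and 574 CPM at 6 h and 106, 149 and 262 CPM at 12 h (log2 fold change -0.85 ± 0.58 (s.e.), edgeR adjusted p = 0.444), and Egr1 at 170.3, 389 and 1359 CPM and 421, 413 and 867 CPM (log2 fold change -0.21 ± 0.59 (s.e.), edgeR adjusted p = 0.896). Both were highest in replicate 3 of either group, and without the 6 libraries rich in ganglion markers, 6 h replicate 3 among them, Egr1 turned to 1.21 (edgeR adjusted p = 0.00858). Fosb (-1.23) and Npas4 (0.43) did not pass. None of 20 effector genes of neuronal activity was called by edgeR, DESeq2 or limma-voom, and 4 had an unadjusted p under 0.05 (median 0.01, -0.22 to 0.36 among the alternatives). Arc (0.31), Homer1 (-1.23) and Bdnf (0.05) did not pass, nor did Ptgs2, the inducible cyclooxygenase, with 65.9, 73.7 and 109 CPM at 6 h and 227, 311 and 184 CPM at 12 h (log2 fold change 1.53 ± 0.61 (s.e.), edgeR adjusted p = 0.157).

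Of 14 Notch and BMP target genes, Tmem100 rose and none fell (median 0.24, 0.04 to 0.39 among the alternatives). Tmem100 (chromosome 11, 89921122 to 89928844), a membrane protein induced by BMP signalling in endothelium, was at 17.3, 14.3 and 16.5 CPM at 6 h, 34.2, 31 and 37.9 CPM at 12 h and 12.7 ± 2.13 CPM (SD, n = 3) at 24 h (log2 fold change 1.1 ± 0.17 (s.e.), edgeR adjusted p = 0.00252 for 12 h against 6 h), with 11.8 to 38.2 CPM in controls. The 3 libraries of 12 h lay above the 6 libraries of 6 and 24 h. Tmem100 stayed called with each of the 6 libraries left out in turn. Id4 (-0.82, adjusted p = 0.0183) passed the adjusted p alone, lower at 12 h, and Hes1 (-0.17), Hes5 (0.33), Id1 (0.47) and Id3 (0.39) did not pass. Of 17 cell cycle genes, 1 fell (Cdca3), none rose above the fold limit, and the median was -0.46, though 0.01 with the genes limited to those with 10 counts in every library. Cdca3, a mitotic entry factor, was at 1.68, 2.35 and 1.4 CPM at 6 h and 0.497, 0.232 and 0 CPM at 12 h (log2 fold change -2.67 ± 0.68 (s.e.), edgeR adjusted p = 0.0303), a low level, and it shares exon bases with Usp5 on the other strand. Pcna (-0.93, adjusted p = 0.0052) fell and Mcm6 (0.70, adjusted p = 0.0292) rose past the adjusted p alone, while Mki67 (-0.95), Top2a (-1.09), Cdk1 (-1.41) and Ccnb1 (-1.2) did not pass. Outside the list, Cenpa, the histone variant of centromeres, went from 12.3, 15.4 and 20.8 CPM to 2.98, 2.95 and 5.74 CPM (log2 fold change -2.12 ± 0.47 (s.e.), edgeR adjusted p = 0.016), and Cdc25c, a phosphatase of mitotic entry, rose from 1.52, 4.9 and 5.94 CPM to 12.8, 8.98 and 22.1 CPM (log2 fold change 1.83 ± 0.49 (s.e.), edgeR adjusted p = 0.037). Cdca3 kept its call without 12 h replicate 1 (-3.45) and 6 h replicate 1 (-2.7) and lost it without any other library (-2.85 to -2.29). Cenpa lost its call without 12 h replicate 1 (-1.94), 12 h replicate 2 (-1.99) and 6 h replicate 3 (-1.87). Cdc25c kept its call without 12 h replicate 2 (2.1) and lost it without any other library (1.39 to 2.2). Cenpa (-1.75) was not called when the 6 libraries rich in ganglion markers were left out.

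No gene was called by edgeR in the lists of glucocorticoid response (15 genes, median -0.22), p53 targets (11, 0.32), metallothionein and zinc (7, 0.33), NRF2 targets (10, 0.02), MAPK feedback (14, 0.12), hypoxia and glycolysis (11, 0.01), cholesterol synthesis (16, -0.11), interferon response (13, 0.44) and endothelial activation (8, -0.23). At an unadjusted p under 0.05 these lists held, in the same order, 2, 2, 3, 2, 2, 3, 2, 2 and 2 genes. DESeq2 called 1 gene, of the interferon list, and limma-voom 0. Mt2, a metallothionein, was at 24.6, 24.2 and 44.9 CPM at 6 h and 16.5, 62.8 and 131 CPM at 12 h (log2 fold change 1.17 ± 0.60 (s.e.), edgeR adjusted p = 0.281), and it was called, at 2.0 (edgeR adjusted p = 0.00981), when the 6 libraries rich in ganglion markers were left out. The interferon list was above 0 in 12 of its 13 genes, with its median from 0.09 to 0.58 among the alternatives and with Mx1 (1.64, adjusted p = 0.364) and Bst2 (1.38, adjusted p = 0.0738) highest. Slc7a11 (-0.92, adjusted p = 0.0332), the cystine transporter, passed the adjusted p alone, lower at 12 h. Vascular and other non-neural markers gave 0 calls by the 3 tools, with medians of 0.34 for 10 endothelial genes, 0.40 for 6 meningeal, -0.37 for 3 choroid plexus and -0.17 for 5 blood genes, and 1 of these 24 genes at an unadjusted p under 0.05. The CA3 (4 genes, 0.12), dentate (4, 1.06) and thalamus (3, -0.25) lists gave 0 calls and no gene at an unadjusted p under 0.05.

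**Figure D3:**
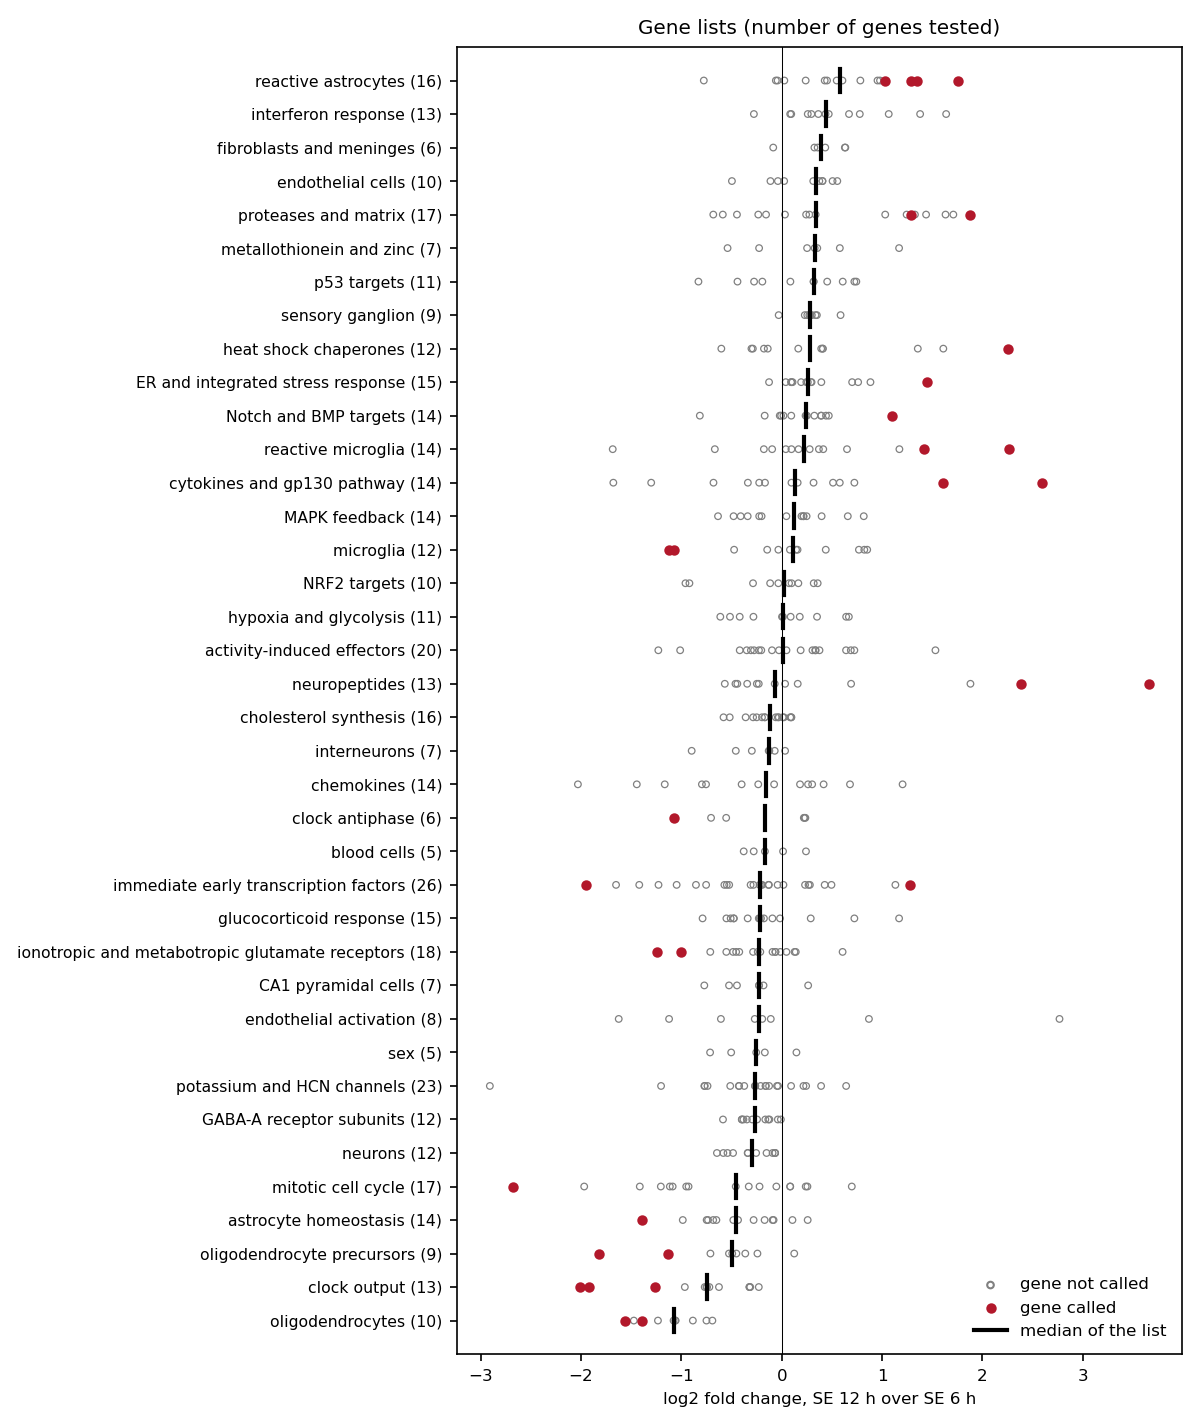
Log2 fold change of SE 12 h over SE 6 h for the genes of each list with at least 5 genes tested, except the families of the closing section that were chosen after their values were seen, ordered by the list's median (black bar), with called genes in red and others open. Of the lists drawn, the oligodendrocyte and clock output lists lie lowest, with medians of -1.07 and -0.74 and all their genes below 0, and the reactive astrocyte list lies highest, with a median of 0.58.

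Of 12 transcription factor genes that the study follows after SE, none was called. None of Mtf1 (0.25), Rest (0.23), Nfkb1 (0.20), Rel (-0.37), Rela (-0.15), Irf8 (0.46), Runx1 (0.62), Runx2 (-0.05), Cebpb (-0.23), Suz12 (0.30) and Nfe2l2 (-0.02) passed the adjusted p. Spi1, the master factor of myeloid cells, was higher in each 12 h library than in each 6 h library (4.08, 6.56 and 4.33 CPM and 7.65, 8.45 and 11.9 CPM) and was not called (log2 fold change 0.90 ± 0.26 (s.e.), edgeR adjusted p = 0.05001). Mtf1, the zinc-sensing factor, was at 47.8, 59.1 and 49.5 CPM at 6 h and 60.8, 62.2 and 63.1 CPM at 12 h (log2 fold change 0.25 ± 0.11 (s.e.), edgeR adjusted p = 0.199).

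The remaining genes with marked changes came from varied classes. Rxfp1 (chromosome 3, 79548868 to 79645280), the relaxin receptor, fell from 69.6, 37.1 and 37.4 CPM to 5.62, 6.7 and 2.63 CPM (log2 fold change -3.21 ± 0.57 (s.e.), edgeR adjusted p = 0.00454), and its 9 controls spanned 8.08 to 71.2 CPM, wider than the gap between the groups. Magel2, an imprinted gene of the ubiquitin pathway, went from 2.88, 9.99 and 15.8 CPM to 1.29, 1.52 and 1.83 CPM (log2 fold change -2.7 ± 0.58 (s.e.), edgeR adjusted p = 0.014). Gucy2c, a receptor guanylate cyclase, went from 9.19, 16.6 and 33 CPM to 2.68, 3.08 and 5.5 CPM and was at 0 to 2.22 CPM in controls (log2 fold change -2.35 ± 0.52 (s.e.), edgeR adjusted p = 0.0153). In these genes the highest 6 h value was in replicate 1 for Rxfp1 and in replicate 3 for the others. Myh6, a myosin heavy chain gene that overlaps the antisense RNA Mhrt, went from 5.43, 6.66 and 7.94 CPM to 1.59, 0.829 and 2.47 CPM (log2 fold change -2.09 ± 0.34 (s.e.), edgeR adjusted p = 0.00307). Ttll8, a tubulin glycylase, was at 6.23, 9.8 and 7.13 CPM and 2.48, 1.13 and 1.91 CPM (log2 fold change -2.02 ± 0.41 (s.e.), edgeR adjusted p = 0.0104). Mmp23, a membrane metalloprotease, was at 14.5, 24.7 and 21.4 CPM and 4.47, 4.51 and 8.76 CPM (log2 fold change -1.78 ± 0.46 (s.e.), edgeR adjusted p = 0.0328). All of these were without overlap between 6 and 12 h, which was a condition for naming them. The zinc transporter gene Slc30a2 (6.07, 3.23 and 4.71 CPM at 6 h and 1.14, 1.99 and 0.956 CPM at 12 h, log2 fold change -1.76 ± 0.36 (s.e.), edgeR adjusted p = 0.0105) shares exon bases with Extl1 on the other strand, and Extl1, a glycosyltransferase of heparan sulfate, fell from 71.1, 53.9 and 62.2 CPM to 19.9, 25.2 and 17 CPM (log2 fold change -1.59 ± 0.16 (s.e.), edgeR adjusted p = 0.000116), named for that overlap. Btbd17 (-1.94, adjusted p = 0.00776), the long non-coding RNA Rmst (-1.84, adjusted p = 0.0187) and Fam78a (-1.68, adjusted p = 0.0256) fell as well. Rxfp1, Myh6, Ttll8, Slc30a2 and Btbd17 stayed called with each of the 6 libraries left out in turn. Magel2 lost its call without 6 h replicate 3 (-2.0). Gucy2c lost its call without 12 h replicate 2 (-2.21) and 6 h replicate 3 (-1.76). Mmp23 kept its call without 12 h replicate 3 (-2.16) and 6 h replicate 1 (-1.97) and lost it without any other library (-1.74 to -1.61). Rmst lost its call without 12 h replicate 2 (-1.91), 12 h replicate 3 (-1.67) and 6 h replicate 3 (-1.89). Fam78a kept its call without 12 h replicate 3 (-2.11) and 6 h replicate 1 (-1.89) and lost it without any other library (-1.9 to -1.17). Magel2 (-1.97) and Gucy2c (-1.59) were not called when the 6 libraries rich in ganglion markers were left out.

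Among the rises, Bdkrb2, the bradykinin B2 receptor, went from 4.31, 6.66 and 6.33 CPM to 35, 10.5 and 31.7 CPM (log2 fold change 2.12 ± 0.45 (s.e.), edgeR adjusted p = 0.0126). Pla2g5, a secreted phospholipase, went from 1.04, 2.64 and 1.91 CPM to 6.51, 8.92 and 6.85 CPM (log2 fold change 2.0 ± 0.40 (s.e.), edgeR adjusted p = 0.00944). The groups did not overlap in either gene, which was a condition for naming them. All 12 h libraries lay above the controls (0 to 2.56 CPM for Bdkrb2 and 0 to 0.76 CPM for Pla2g5). Ifi207 (2.35, adjusted p = 0.016) and Tmem40 (2.46, adjusted p = 0.0247) rose too. Ifi207 is of the interferon-inducible p200 family, whose near-identical members counting may not resolve. Bdkrb2 lost its call without 6 h replicate 3 (2.2). Pla2g5 lost its call without 6 h replicate 3 (2.05). Ifi207 lost its call without 6 h replicate 3 (2.11). Tmem40 kept its call without 12 h replicate 1 (2.77) and 12 h replicate 3 (2.69) and lost it without any other library (1.67 to 2.71). Bdkrb2 (1.9), Ifi207 (2.1) and Tmem40 (2.25) were not called when the 6 libraries rich in ganglion markers were left out.

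**Figure D4:**
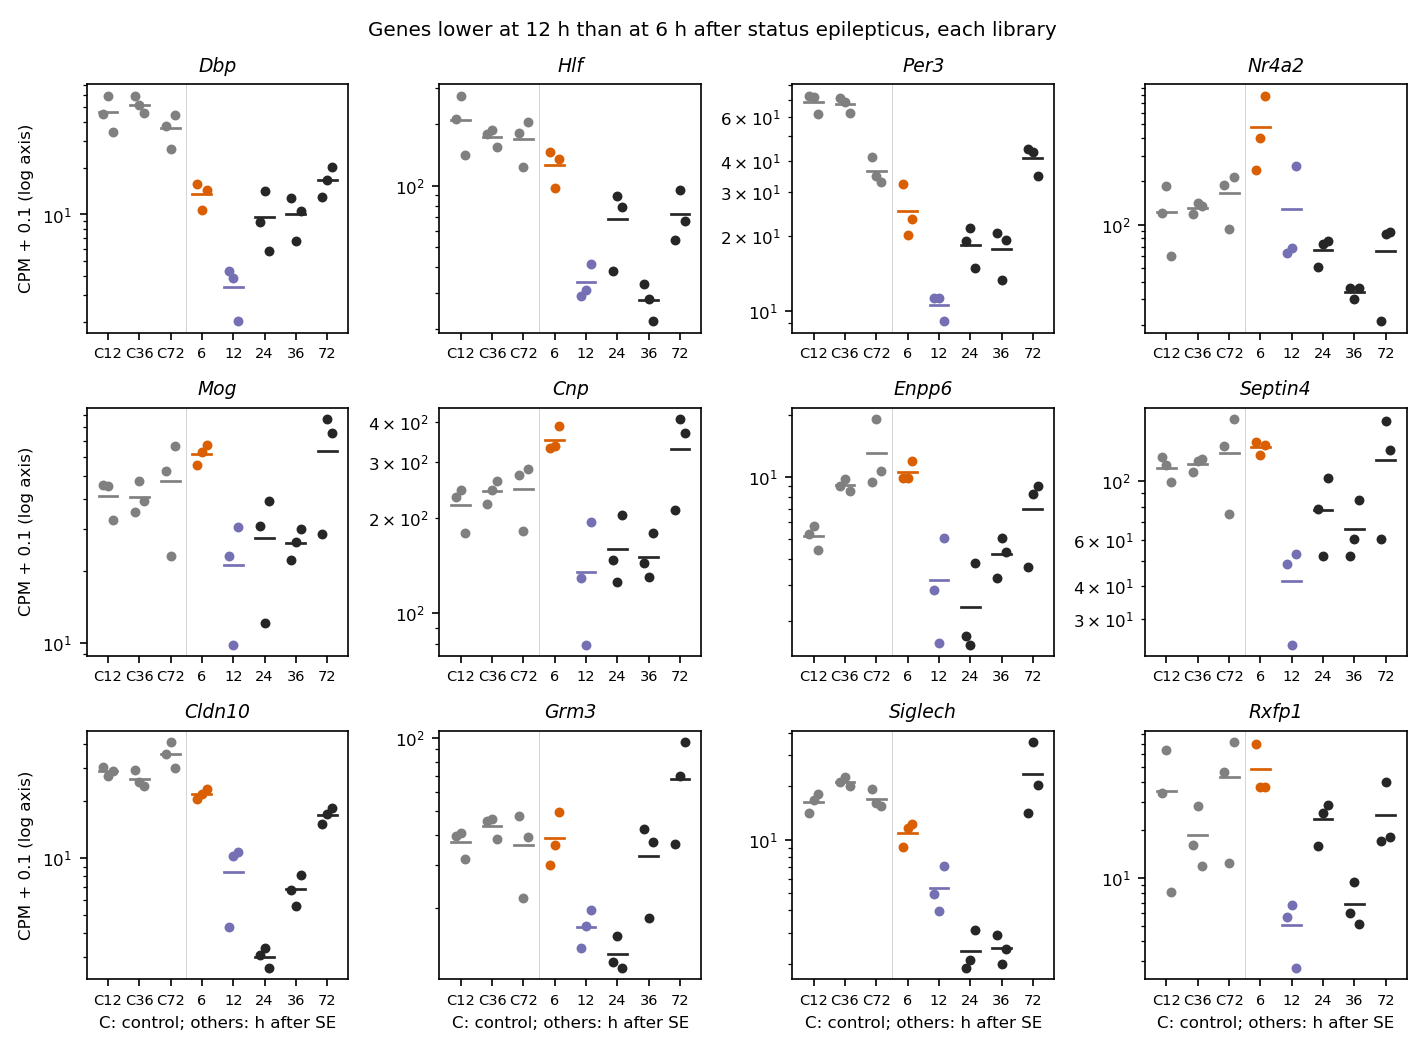
The panels show 12 genes called lower at 12 h than at 6 h, with CPM plus 0.1 on a log axis. Points are libraries and bars are means of 3, for control groups (C12, C36 and C72, grey), SE 6 h (orange), SE 12 h (violet) and SE 24, 36 and 72 h (black). The 3 libraries of 12 h lie below the 3 of 6 h in 11 of the 12 panels, the exception being Nr4a2. Of all 243 called genes, 227 were without overlap.

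Whether the step from 6 to 12 h differed from the next step was tested directly, as the change from 6 to 12 h minus the change from 12 to 24 h. Both steps use the same 3 libraries of 12 h, so a deviation of those libraries moves both steps, in opposite directions. A difference can therefore come from the 12 h libraries alone. The next step also covered more hours. The steps differed in 344 genes (1.9%), 137 with a larger rise or smaller fall in the earlier step and 207 the opposite. The split was 158 and 150 with scaling by the library total alone, and 350 and 355 without the 6 libraries rich in ganglion markers. Selplg fell to 12 h and was at 20.9, 10.0 and 8.9 CPM at 24 h (difference -3.44 ± 0.54 (s.e.), edgeR adjusted p = 0.00505). Dbp was at 8.81, 14 and 5.68 CPM at 24 h (-3.52 ± 0.59 (s.e.), edgeR adjusted p = 0.00589), and Rxfp1 at 15.7, 25.5 and 28.6 CPM (-5.4 ± 1.04 (s.e.), edgeR adjusted p = 0.013). These 3 genes were lower at 12 h than at both neighbouring times. In the other direction, Pdyn was at 7.01, 7.66 and 9.6 CPM at 24 h (4.79 ± 0.96 (s.e.), edgeR adjusted p = 0.0155). Ak7, an adenylate kinase gene (1.84, 192 and 3.27 CPM at 12 h, 8.35 ± 2.12 (s.e.), edgeR adjusted p = 0.0411), and the collagen gene Col10a1 (0.745, 59.2 and 4.22 CPM at 12 h, 8.33 ± 1.93 (s.e.), edgeR adjusted p = 0.0276) were high in 12 h replicate 2 alone, and neither was called between 6 and 12 h, though Ak7 was, at 3.92, without the 6 libraries rich in ganglion markers. Without 12 h replicate 2 the number of genes fell to 119, and without 6 h replicate 3 to 165.

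A second test compared the step with a later one, as the change from 6 to 12 h minus the change from 24 to 36 h (an interval of 12 h), and found 212 genes (1.17%), 64 positive and 148 negative, a split of 151 and 133 without the 6 libraries rich in ganglion markers. Lif rose from 6 to 12 h and was at 219, 169.8 and 234 CPM at 24 h and 33.9, 91.9 and 79.2 CPM at 36 h (difference 4.19 ± 0.53 (s.e.), edgeR adjusted p = 0.000458). The stromelysin gene Mmp3 had 2.02, 3.27 and 6.24 CPM at 24 h and 0.445, 1.97 and 0.228 CPM at 36 h (3.89 ± 0.93 (s.e.), edgeR adjusted p = 0.0456). Both had a higher mean at 12 h than at 6 h and a lower mean at 36 h than at 24 h. Myh6 had 1.27, 0.697 and 0.701 CPM at 24 h and 4.15, 2.21 and 3.42 CPM at 36 h (-4.01 ± 0.49 (s.e.), edgeR adjusted p = 0.000458). Aass, of lysine breakdown, had 0.212, 0.871 and 0.14 CPM and 4.74, 1.81 and 2.05 CPM (-3.69 ± 0.65 (s.e.), edgeR adjusted p = 0.00539), and Folh1, which cleaves the dipeptide NAAG, had 1.27, 1.44 and 1.26 CPM and 12.7, 4.57 and 11.9 CPM (-3.37 ± 0.50 (s.e.), edgeR adjusted p = 0.00177). Of these last 3 genes, only Myh6 was also called between 6 and 12 h. Without SE 36 h replicate 1, SE 24 h replicate 3, SE 6 h replicate 3 or SE 36 h replicate 3 the count was 100, 101, 106 or 127.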

How the data were processed

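RNA of microdissected CA1 was sequenced after polyA selection, and the authors deposited raw counts per gene for the 24 libraries in 1 table. Per the labels and the study's methods, reads were trimmed with Trim Galore 0.6.6, aligned to GRCm39 with STAR 2.7.8a and counted with HTSeq 0.13.5 without strand, with SAMtools 1.10 between. Counting without strand does not use the strand to separate genes that overlap on opposite strands. Of the 243 called genes, 125 share exon bases with such a gene, and the counts do not show how reads of shared bases were treated. Here, groups were taken from the labels and the counts of all 24 libraries were fitted with edgeR 4.0.16 (R 4.3.3, quasi-likelihood, TMM scaling, edgeR's filter on low counts over the 8 groups, 1 RUVr factor), after the study's use of a factor of unwanted variation. Calls needed a Benjamini-Hochberg adjusted p no higher than 0.05 and a log2 fold change no smaller than 1 in size. Library totals of the compared groups ran from 10949845 to 30133731 counts. On simulated counts for SE 12 h against SE 6 h over 17888 genes, 77 of 100 genes changed by 1.5 on the log2 scale and 91 of 100 changed by 2.5 were called, with 4 false calls among 17688 unchanged genes. The simulated counts were drawn for each gene apart, with no unwanted factor shared between genes. Changes were placed only in genes above a lower limit of expression. These rates therefore describe the simulated counts and need not hold for the real ones.

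The text names the 15 called genes with the largest change in each direction, with a mean log2 CPM no lower than 1 and no overlap of the groups, the called members of the lists, the transcription factors of the study, and the 3 genes with the largest difference in each direction of each difference test. A few of these genes are not reported here. The comparison, the gene lists and the tests were chosen with earlier results of these data known. Gene coordinates are of GRCm39, and 18552 of the gene identifiers matched the annotation used and 95 did not. Promoter sequences are from RefSeq, build GRCm38.p6, matched by symbol. Alternatives were DESeq2 1.42.0, limma-voom (limma 3.58.1), other scalings, filters and thresholds, fits of fewer libraries, and a replicate block.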

Additional observations from a re-analysis of the deposited data

Results flagged for a closer look

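These genes were singled out because a test of the difference itself showed that the step from 6 to 12 h differed from another step. The values are differences of log2 fold changes by edgeR, each at an adjusted p of at most 0.05, and a negative value means a larger fall or a smaller rise from 6 to 12 h. The step from 12 to 24 h shares the 12 h libraries, so a deviation of those libraries enters both steps, in opposite directions.

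Against the step from 12 to 24 h, the clock genes differed by -3.52 for Dbp, -2.97 for Hlf, -2.07 for Per3, -1.19 for Tef and -1.79 for Nr1d1. Negative differences were also found for genes of membrane proteins (-5.4 for Rxfp1, -2.84 for Chrm2, -1.7 for S1pr1 and -3.44 for Selplg) and for a mixed set of others (-2.49 for Slc30a2, -2.58 for Septin4, -4.86 for Cdca3 and -1.45 for Kcnj10). Positive differences stood at 4.79 for Pdyn, 2.55 for Tmem100, 2.27 for Klf2, 3.28 for Cdc25c and 3.04 for Pla2g5 and at 2.67 for Lcn2, 2.42 for Itgb3, 2.3 for Hmox1 and 4.54 for Hspa1a. Ak7 and Col10a1, high in 12 h replicate 2 alone, had differences of 8.35 and 8.33.

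Against the step from 24 to 36 h, the secreted and signalling genes differed by 4.19 for Lif, 2.67 for Clcf1, 2.34 for Hbegf, 1.42 for Fgf2 and 1.21 for Spry4. Genes of matrix and adhesion differed by 3.03 for Tnc, 3.89 for Mmp3 and 2.48 for Itga5, and Hspb1, S1pr3, Ms4a6c, Pla2g5, Klf2 and Id1 by 2.79, 1.77, 2.08, 2.68, 2.11 and 1.17. Negative differences were found for astrocyte and oligodendrocyte genes (-2.6 for Cldn10, -2.59 for Grm3, -1.59 for Kcnj10, -2.69 for Enpp6 and -2.13 for Cmtm5), for cell cycle genes (-4.25 for Cdca3, -3.27 for Mki67 and -2.91 for Top2a), for the clock genes (-2.05 for Dbp and -1.2 for Per3) and for others (-4.01 for Myh6, -3.69 for Aass, -3.37 for Folh1, -2.69 for Ttll8, -1.7 for Selplg and -1.01 for Gabrb2).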

How the results depend on the processing

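All 64 called genes followed by name kept the direction of their change in the alternatives and omissions run. Of 280 single-gene and list values, Egr1 alone turned to a called change of the other sign, at 1.21 without the 6 libraries rich in ganglion markers, an alternative chosen after seeing the data. The 243 calls between 6 and 12 h became 456 at an absolute log2 fold change of 0.66, 823 with no fold threshold, 381 by DESeq2 and 411 by limma-voom, 313 without Ctr 72 h replicate 2 (chosen after seeing the data), 149 with libraries of label numbers 92 to 104 only at both times (1 at 6 h, itself rich in ganglion markers and assumed to vary like the other groups, and 2 at 12 h), 148 without the RUVr factor, 72 with the 6 libraries alone and 1 factor, and 0 by edgeR without it (2516 genes at an unadjusted p under 0.05). With single libraries of the compared groups left out they ranged from 75 to 292. For the difference from the step of 12 to 24 h, 344 calls became 668 by DESeq2, 541 by limma-voom, 153 without the factor, and, by alternatives chosen after seeing the data, 519 without Ctr 72 h replicate 2 and 705 without the 6 libraries rich in ganglion markers, with 119 to 441 when single libraries were left out. For the difference from the step of 24 to 36 h, 212 became 418 by DESeq2, 102 without the factor and 108 with the range of the label number as a factor, with 100 to 297 when single libraries were left out. Fewer samples or genes enter by construction where libraries were left out, and for the other settings the cause was not tested. With the range of the label number as a factor, 221 genes were called between 6 and 12 h. The split of 81 higher and 162 lower became 104 and 126 with scaling by the library total alone. Of 64 called genes followed by name, 21 were called without each of the 6 libraries in turn, and 43 lost their call without SE 6 h replicate 3. Of 43 list medians, 24 kept their sign throughout.

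The replicate number as a block gave 247 calls (295 and 194 for the differences), and 5 of the 64 genes lost their call. Libraries with the same number did not deviate together (correlations of -0.0965, -0.0157 and -0.0310), so the numbers were not taken as a pairing.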

Other observations

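The gene families below were chosen after their values were seen, and so their counts are descriptions. Over all genes tested, 0.446% were called higher and 0.892% lower. The muscarinic receptors, the targets of pilocarpine, were lower at 12 h in 4 of 5 genes by a log2 fold change of 1 or more, and 3 of the 5 were called. The 5 genes summed to 328 to 394 CPM at 6 h, 264 to 268 CPM at 12 h and 245 to 461 CPM in controls. Chrm2 was at 10.7, 8.03 and 14.7 CPM at 6 h and 5.27, 1.96 and 3.82 CPM at 12 h (log2 fold change -1.64 ± 0.32, edgeR adjusted p = 0.00776), and Chrm3 was at 86.6, 85.5 and 87.1 CPM at 6 h and 15.2, 30.4 and 51.1 CPM at 12 h (log2 fold change -1.46 ± 0.33, edgeR adjusted p = 0.0164). For Chrm4 the change was -1.01 (edgeR adjusted p = 0.0478), for Chrm5 -1.44 (edgeR adjusted p = 0.0826) and for Chrm1, the main receptor of pyramidal cells, -0.02. Chrm2 lost its call without 6 h replicate 3 (-1.38). Chrm3 lost its call without 12 h replicate 1 (-1.09), 12 h replicate 2 (-1.44) and 6 h replicate 3 (-1.46). Chrm4 kept its call without 12 h replicate 3 (-1.26) and 6 h replicate 1 (-1.23) and lost it without any other library (-1.04 to -0.70). Chrm3 (-1.11) and Chrm4 (-0.46) were not called when the 6 libraries rich in ganglion markers were left out. Of the sphingosine-1-phosphate receptors, S1pr3 rose as given above and S1pr1 fell, with 153, 179 and 222 CPM at 6 h and 79.5, 79.1 and 114 CPM at 12 h (log2 fold change -1.03 ± 0.16, edgeR adjusted p = 0.00252), while S1pr2 (-0.40), S1pr4 (0.72) and S1pr5 (-0.60) did not pass. S1pr1 lost its call without 12 h replicate 1 (-0.94), 12 h replicate 2 (-0.94) and 6 h replicate 3 (-0.87). Without the 6 libraries rich in ganglion markers, S1pr1 (-0.79) was not called.

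Growth factor genes gave 1 call in each of 2 families. Hbegf, an EGF receptor ligand, was at 35, 66.2 and 52.5 CPM at 6 h and 162, 136 and 176 CPM at 12 h (log2 fold change 1.63 ± 0.23, edgeR adjusted p = 0.00179), and none of the other 8 ligands tested passed. Fgf2 was at 44.2, 36.7 and 27.7 CPM at 6 h and 103, 71.1 and 84.4 CPM at 12 h (log2 fold change 1.24 ± 0.22, edgeR adjusted p = 0.00444), and none of the other 8 fibroblast growth factors passed. Of 17 integrin chains, Itga5 (36.1, 40.8 and 34.4 CPM at 6 h and 132, 59.7 and 117 CPM at 12 h (log2 fold change 1.45 ± 0.27, edgeR adjusted p = 0.00633)) and Itgb3 (4.23, 5.19 and 4.16 CPM at 6 h and 12.4, 20.9 and 7.73 CPM at 12 h (log2 fold change 1.62 ± 0.36, edgeR adjusted p = 0.0154)) rose. Hbegf, Fgf2 and Itga5 stayed called with each of the 6 libraries left out in turn. Itgb3 lost its call without 12 h replicate 2 (1.14) and 6 h replicate 3 (1.56). Among genes of phagocytes, Cybb, the catalytic subunit of the NADPH oxidase, was at 2.88, 2.55 and 1.83 CPM at 6 h and 10.7, 5.8 and 8.13 CPM at 12 h (log2 fold change 1.74 ± 0.34, edgeR adjusted p = 0.00776), and its 5 partner genes did not pass. Ms4a6c was at 0.959, 0.392 and 0.382 CPM at 6 h and 4.08, 2.42 and 2.39 CPM at 12 h (log2 fold change 2.36 ± 0.40, edgeR adjusted p = 0.00368), and Ms4a6d (1.12) and the scavenger receptor gene Msr1 (1.52) rose as well. The Ms4a6 genes are close copies that counting may not resolve. Ms4a6c stayed called with each of the 6 libraries left out in turn. Cybb lost its call without 6 h replicate 3 (1.57). Ms4a6d lost its call without 12 h replicate 3 (0.90), 6 h replicate 2 (1.24) and 6 h replicate 3 (0.81). Msr1 kept its call without 12 h replicate 2 (1.65) and 6 h replicate 2 (1.81) and lost it without any other library (1.26 to 1.5). Without the 6 libraries rich in ganglion markers, Fgf2 (0.94), Itga5 (1.16), Cybb (1.35), Ms4a6c (1.8), Ms4a6d (0.92) and Msr1 (1.21) were not called.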
